A study of Mus musculus with 8 samples.

Results

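The Tmem181 and Dynlt1 genes at the proximal end of mouse chromosome 17 form a locus of near-identical copies that lie side by side. The members were chosen by gene symbol. They are Tmem181a, Tmem181b-ps, Tmem181c-ps, Dynlt1a, Dynlt1b, Dynlt1c, Dynlt1f and the long non-coding RNA gene Gm26848. Of these 8 genes, 7 have a row among the 55291 rows of the count table, and Gm26848 is not analysed here. The locus was picked because copies of it differed between genotypes in these same mice, so the genotype values of its members are a description, and any count of copies past a threshold is set beside the same count over all genes and supports nothing.

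Bulk RNA-seq was performed on lumbar spinal cord of 8 male mice on the C57BL/6J background, all of which carry the SOD1G93A transgene, a mutant human superoxide dismutase that causes motor neuron disease in mice. The genotype of 4 mice (E1776, E5231, E5248 and E5568) was SOD1G93A Ager fl/fl Cx3cr1 Cre/+, and these are called Ager-deleted. The other 4 mice (E5386, E5642, E6578 and E6732) were SOD1G93A Ager+/+ Cx3cr1 Cre/+, and these are called Cre-expressing controls. All 8 mice carried the tamoxifen-inducible Cre in the Cx3cr1 gene, which is active in microglia and other myeloid cells. All received 5 injections of 0.2 µg tamoxifen, at 12 weeks of age per the labels, whereas the methods of the study give a somewhat later age. The mice were 120 days old per the labels, whereas the results of the study place the tissue at end-stage. The groups differ in the Ager alleles, and sequence linked to those alleles cannot be told apart from the genotype. RNA was taken from the whole cord, so a lower level in a bulk sample may be fewer cells or less RNA per cell, and these cannot be told apart.

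TMEM181 is a membrane protein of the GOST family, a group of proteins with a Golgi dynamics domain outside the membrane and a bundle of membrane-spanning helices, and it is known as a host factor for a bacterial toxin, the cytolethal distending toxin. Dynlt1, also called Tctex1, is a light chain of cytoplasmic dynein, the motor that carries cargo toward the minus end of microtubules and that motor neurons rely on for retrograde transport along the axon. Segmental duplication of this stretch has left the mouse with several copies of each gene, some still coding for protein and some classed as pseudogenes.

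On GRCm38 the locus spans 399.0 kb of chromosome 17, from base 6256860 to base 6655900 (GENCODE M21). Tmem181a, the protein-coding copy, lies at chr17:6256860-6308314 on the plus strand. Tmem181b-ps, annotated as a transcribed unprocessed pseudogene, lies at chr17:6438524-6467022 on the minus strand. Tmem181c-ps, an unprocessed pseudogene, lies at chr17:6613753-6639790, also on the minus strand. Each Tmem181 copy has a Dynlt1 copy beside it. The 3′ end of Tmem181a overlaps the 3′ end of Dynlt1a (chr17:6306340-6317500, minus strand) over 1975 bases, of which 580 are exonic in both genes. Dynlt1b (chr17:6430112-6436296, plus strand) ends 2227 bases from the 3′ end of Tmem181b-ps. Dynlt1c (chr17:6601671-6609774, plus strand) ends 3978 bases from the 3′ end of Tmem181c-ps, and Dynlt1f (chr17:6646602-6655900, minus strand) follows it. Tmem181b-ps and Dynlt1b both lie inside the span of Gm26848 (chr17:6314199-6493180, plus strand) and share no exonic base with it. A further 6 annotated genes inside the locus all have a row, none passed the filter on low counts, and the highest count of any of them in any mouse was 4.

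The exons of the Tmem181 copies differ at few bases. Of the 17 exons of Tmem181a, 13 have a counterpart of the same length in both pseudogenes, and all 13 hold coding sequence of Tmem181a. Over these 1157 bases Tmem181a and Tmem181b-ps differ at 5 bases (99.6% identity), Tmem181a and Tmem181c-ps at 8 (99.3%), and the pair of pseudogenes at 7 (99.4%). In 7 of the 13 exons the 3 copies are identical. Exon 2 of Tmem181a holds the most differing bases and is printed here from the GENCODE M21 transcripts, since within these exons reads can be told apart only at such bases. It lies at chr17:6280598-6280701 (plus strand) in Tmem181a, at chr17:6466919-6467022 (minus strand) in Tmem181b-ps and at chr17:6639687-6639790 (minus strand) in Tmem181c-ps. Each copy is given 5′ to 3′ along the transcript, with capitals at the 3 positions that differ among the copies.
Tmem181a: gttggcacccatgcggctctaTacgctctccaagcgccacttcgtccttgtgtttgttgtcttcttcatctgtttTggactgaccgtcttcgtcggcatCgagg
Tmem181b-ps: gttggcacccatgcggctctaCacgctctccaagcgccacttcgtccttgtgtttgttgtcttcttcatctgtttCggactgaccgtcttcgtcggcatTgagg
Tmem181c-ps: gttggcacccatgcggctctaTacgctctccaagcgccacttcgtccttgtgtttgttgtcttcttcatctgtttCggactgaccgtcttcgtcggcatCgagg
Counted from 1 at the 5′ end of the exon, Tmem181b-ps differs from Tmem181a by T22C, T76C and C100T, and Tmem181c-ps differs from it by T76C alone.

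The coding sequences of the Dynlt1 copies are closer still. With the stop codon each is 342 bases long, and those of Dynlt1a, Dynlt1c and Dynlt1f are identical. Dynlt1b differs from them by C21A, counted from the A of the start codon, and all 4 genes encode the same protein of 113 residues. The coding sequences lie within chr17:6310873-6317400 (minus strand) for Dynlt1a and within chr17:6430212-6435967 (plus strand) for Dynlt1b. Their first 120 bases, spliced, are shown because this base is the coding difference that separates Dynlt1b from the other copies. It stands in capitals.
Dynlt1a: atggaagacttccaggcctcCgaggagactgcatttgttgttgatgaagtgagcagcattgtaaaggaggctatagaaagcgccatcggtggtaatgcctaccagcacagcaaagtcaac
Dynlt1b: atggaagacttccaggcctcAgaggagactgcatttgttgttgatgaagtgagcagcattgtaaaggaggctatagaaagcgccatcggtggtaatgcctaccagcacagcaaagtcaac
The whole 342 bases of Dynlt1a are found in Dynlt1-ps1, a processed pseudogene on another chromosome (chr6:135349408-135349749, minus strand), which was chosen for mention after its values were seen.

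To ask how much of each copy a read could tell apart, every stretch of 100 bases in the transcripts of a gene was searched for in the transcripts of all other GENCODE M21 genes, on both strands. For Tmem181a 75.7% of stretches were in no other gene, for Tmem181b-ps 66.7% and for Tmem181c-ps 48.3%. Of the stretches of Tmem181b-ps 29.6% were also in Tmem181a. The Dynlt1 copies were less distinct, with 45.3% of stretches in no other gene for Dynlt1a, 22.0% for Dynlt1f, 19.3% for Dynlt1c and 18.0% for Dynlt1b, and 67.1% of the stretches of Dynlt1b were also in Dynlt1a. No stretch of Dynlt1-ps1 was distinct. Among the members Gm26848 was the most distinct, at 98.3%. How read pairs that match several copies were counted is not given in the sources used here, and neither is the strand setting, so counts of all copies are uncertain to the extent that the authors' counting could split reads among them, and antisense reads from the overlap of Tmem181a and Dynlt1a may be in either gene.

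**Figure D1:**
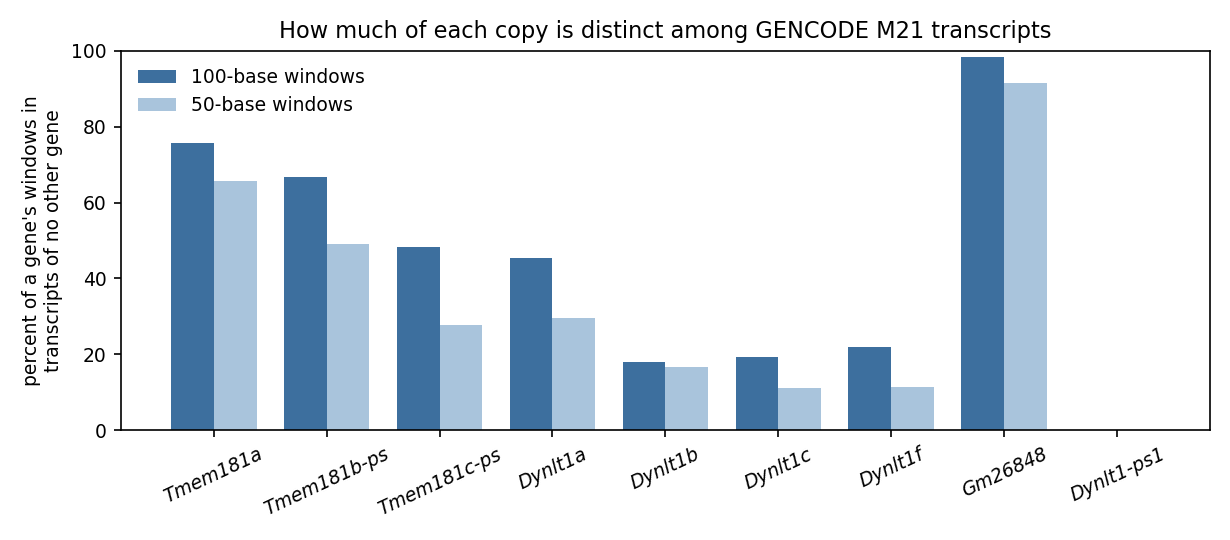
Share of each gene's 100-base stretches (dark bars) and 50-base stretches (light bars) that occur in transcripts of no other gene, in percent. Tmem181a is the most distinct of the copies with a count row (75.7% at 100 bases), Dynlt1b the least (18.0%), and Dynlt1-ps1 has no distinct stretch.

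Levels are CPM, the counts of a gene relative to the TMM-scaled library size, given in the order E1776, E5231, E5248 and E5568 for Ager-deleted mice and E5386, E5642, E6578 and E6732 for controls. Total counts ranged from 31148047 to 40324897 per mouse with a difference between genotypes inside their spread (p = 0.486, exact permutation test, two-sided), and 3 counts correspond to 0.0744 to 0.0963 CPM. Of 19470 genes tested with edgeR's exact test, 14 (0.0719%) had an adjusted p under 0.05, 2 of them (0.0103%) higher in Ager-deleted mice. These 2 were Tmem181b-ps and Dynlt1b, members of the locus. Markers of neurons, oligodendrocytes, astrocytes, microglia and motor neurons and lumbar Hox genes were detected in every mouse, with summed levels that overlapped between genotypes. Skeletal muscle markers stood apart in controls E5386 and E5642 (926 and 1452 summed CPM, against 8.19 to 26.5 in the other 6 mice), and liver markers in control E6732 (619 summed CPM, against 1.34 to 2.66 in the others). Their part in the values below was not tested, but values without E5386 and E5642 are given where they differ. Ager itself, the targeted gene, was at 0.889, 1.51, 1.02 and 1.34 CPM in Ager-deleted mice and at 1.53, 2.22, 2.18 and 2.41 CPM in controls. Every Ager-deleted mouse was below every control, with a log2 fold change of -0.81 ± 0.22 (SE), an adjusted p of 0.252 (edgeR exact test over all genes) and an exact permutation p of 0.0286, the smallest that 4 mice against 4 can give.

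Tmem181b-ps, the transcribed pseudogene, was higher in every Ager-deleted mouse than in any control. It was at 34.6, 33.9, 36.5 and 35.1 CPM in Ager-deleted mice and at 15.4, 14.0, 13.3 and 13.5 CPM in controls. The groups did not overlap, the lowest Ager-deleted mouse stood well above the highest control, and within each genotype the mice were close to each other. The mean was 35.0 ± 1.11 (SD, n = 4) against 14.1 ± 0.954 CPM (n = 4), a log2 fold change of 1.32 ± 0.07 (SE) or 2.49-fold. These values rest on 1258 to 1363 counts per Ager-deleted mouse and 410 to 564 per control. The coefficient of variation among Ager-deleted mice was 3.17%, near the 2.75% that counting alone would give at this depth, and among controls it was 6.79% against 4.49%. Over the other fits the log2 fold change ranged from 1.29 to 1.38.

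Tmem181a, the copy that codes for the membrane protein, was at 24.7, 22.5, 27.7 and 26.1 CPM in Ager-deleted mice and at 24.3, 22.0, 22.6 and 23.3 CPM in controls. The genotypes overlapped, with E5231 among the controls. The mean was 25.2 ± 2.18 CPM (SD, n = 4) against 23.0 ± 0.999 CPM (n = 4), and the log2 fold change was 0.13 ± 0.08 (SE). Tmem181c-ps, the shorter pseudogene, was lower, with 0.737, 0.809, 0.875 and 0.595 CPM in Ager-deleted mice and 0.383, 0.340, 0.488 and 0.608 CPM in controls. These values are 11 to 31 counts per mouse. The genotypes overlapped through E5568 and E6732, and 3 of the 4 Ager-deleted mice were above every control. The log2 fold change of Tmem181c-ps was 0.71 ± 0.24 (SE). It was 0.43 without E5386 and E5642, 0.59 without E5642 alone and 0.90 without E6732.

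Dynlt1b, the Dynlt1 copy next to Tmem181b-ps, was at 1.75, 2.62, 1.78 and 2.40 CPM in Ager-deleted mice and at 1.20, 0.741, 0.390 and 0.778 CPM in controls. All 4 Ager-deleted mice were above all 4 controls, and E5386 was the control nearest to them. The mean was 2.14 ± 0.438 CPM (SD, n = 4) against 0.778 ± 0.333 CPM (n = 4), a log2 fold change of 1.44 ± 0.29 (SE) or 2.72-fold. The counts behind it are small, 63 to 97 per Ager-deleted mouse and 12 to 44 per control, and the spread was wider than counting alone would give (coefficient of variation 20.5% against 11.1% in Ager-deleted mice and 42.8% against 18.9% in controls). Without E5386 and E5642 the log2 fold change was 1.82.

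The other Dynlt1 copies, which encode the same light chain, overlapped between genotypes. Dynlt1a was at 2.24, 2.29, 3.27 and 1.81 CPM in Ager-deleted mice and at 2.79, 2.22, 2.11 and 2.46 CPM in controls, with a log2 fold change of -0.00 ± 0.21 (SE). Its highest and lowest values were both in Ager-deleted mice. Dynlt1c was at 0.787, 0.917, 1.33 and 1.22 CPM in Ager-deleted mice and at 1.12, 0.865, 0.813 and 1.02 CPM in controls, with a log2 fold change of 0.14 ± 0.22 (SE). For Dynlt1f the levels were 2.06, 2.62, 1.86 and 1.94 CPM in Ager-deleted mice and 1.91, 2.62, 2.34 and 2.58 CPM in controls, and the log2 fold change was -0.16 ± 0.17 (SE). In these 3 genes the mice of both genotypes were intermixed. Dynlt1-ps1, whose stretches all occur in the Dynlt1 copies, was at 0.762, 0.863, 0.790 and 0.775 CPM in Ager-deleted mice and at 0.328, 0.556, 0.293 and 0.584 CPM in controls. Its groups did not overlap, while its log2 fold change of 0.84 ± 0.25 (SE) did not pass the threshold (adjusted p = 0.406, edgeR exact test).

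**Figure D2:**
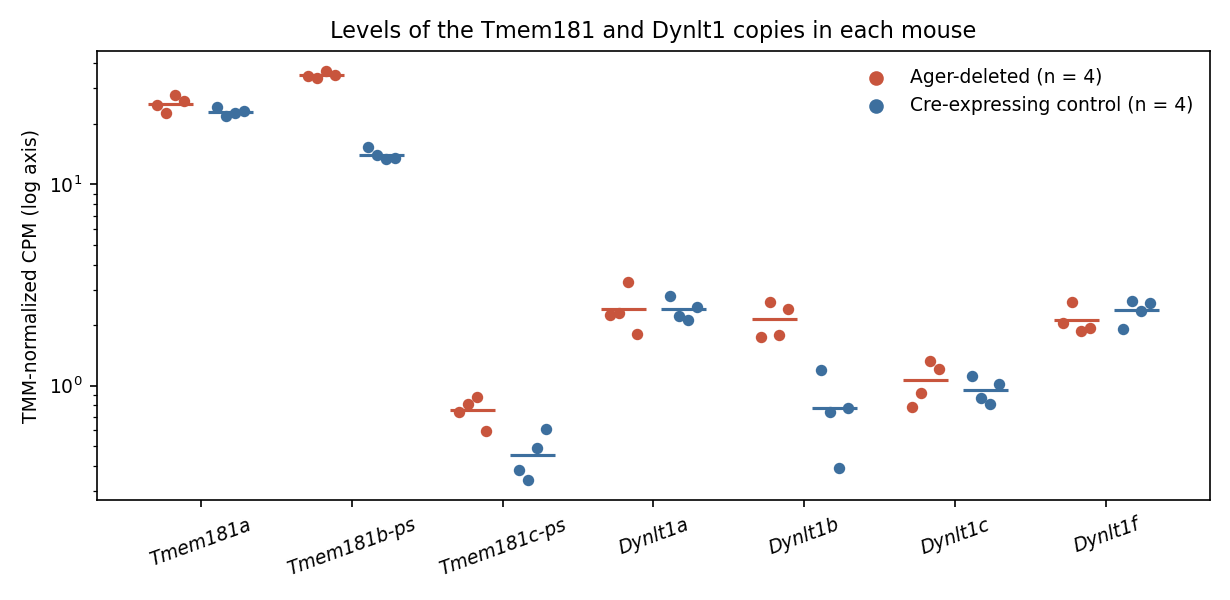
TMM-normalized CPM of the 7 members with a count row in each mouse, on a log axis, with Ager-deleted mice (red, n = 4) and Cre-expressing controls (blue, n = 4), and horizontal lines at the group means. Tmem181b-ps (33.9 to 36.5 against 13.3 to 15.4 CPM) and Dynlt1b (1.75 to 2.62 against 0.390 to 1.20 CPM) do not overlap between genotypes, and the other 5 copies do.

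Of the 7 members with a row, all 7 passed the filter on low counts, and 5 log2 fold changes were above 0 and 2 below. Their median was 0.14, beside 0.0069 over all genes tested. Tmem181b-ps and Dynlt1b were past the adjusted threshold of the exact test, beside 0.0719% of all genes, and the same 2 did not overlap between genotypes, beside 3.88% of all genes (1.97% in this direction). At an unadjusted p under 0.05 there were 3 members, the third being Tmem181c-ps, beside 4.26% of all genes. The quasi-likelihood test called Tmem181b-ps alone among the members. It was also the only gene called by that test in the whole table (0.00514%). Shares over all genes include the members, so they are not a separate background. Nothing is read from these counts, since the same contrast chose the locus. Dynlt1b was not past the threshold in the quasi-likelihood test, limma-voom, the test of unfiltered genes and the fits without E5231, E5568 or E5642.

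Per kilobase of exon the order of the means differed between genotypes only for Tmem181a and Tmem181b-ps. In controls Tmem181a (3.52 ± 0.152 CPM per kb, SD) and Tmem181b-ps (3.36 ± 0.228 CPM per kb) led with overlapping ranges. Dynlt1b followed at 1.01 ± 0.432 CPM per kb, its range overlapping those of Dynlt1f (0.652 ± 0.0895 CPM per kb) and Dynlt1a (0.561 ± 0.0701 CPM per kb), which also overlapped each other. Tmem181c-ps (0.328 ± 0.0863 CPM per kb) and Dynlt1c (0.253 ± 0.0376 CPM per kb) came last with overlapping ranges. In Ager-deleted mice Tmem181b-ps stood first at 8.37 ± 0.266 CPM per kb, above Tmem181a (3.86 ± 0.333 CPM per kb) in every mouse. Dynlt1b came next at 2.77 ± 0.569 CPM per kb, with no mouse as high as the lowest value of Tmem181a. Dynlt1f, Dynlt1a and Tmem181c-ps, at 0.584, 0.563 and 0.544 CPM per kb, could not be ordered beyond their spread, and Dynlt1c was last at 0.281 CPM per kb. Exon lengths are those of GENCODE M21, and levels per kilobase of copies with so much shared sequence depend on how shared reads were counted.

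A ratio of copies within a mouse does not depend on the scaling of the libraries. Per count of Tmem181a there were 1.40, 1.51, 1.32 and 1.35 counts of Tmem181b-ps in Ager-deleted mice and 0.634, 0.635, 0.590 and 0.580 in controls. Tmem181b-ps outnumbered Tmem181a in every Ager-deleted mouse and in no control. Expressed as a share of the summed counts of the 3 Tmem181 copies, Tmem181b-ps held 57.5 ± 1.34% in Ager-deleted mice (SD, n = 4) and 37.4 ± 1.23% in controls (n = 4), and per kilobase of exon 65.6 ± 1.06% and 46.6 ± 1.72%. The share of Tmem181c-ps was 0.964% to 1.41% in Ager-deleted mice and 0.936% to 1.63% in controls, and overlapped. Dynlt1b held 25.7%, 31.0%, 21.6% and 32.6% of the counts of the 4 Dynlt1 copies in Ager-deleted mice and 17.1%, 11.5%, 6.90% and 11.4% in controls. The ratio of Dynlt1b to Dynlt1a was 0.784, 1.14, 0.543 and 1.33 in Ager-deleted mice and 0.431, 0.333, 0.185 and 0.317 in controls, again with no overlap but with a wider spread than that of the Tmem181 ratio.

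**Figure D3:**
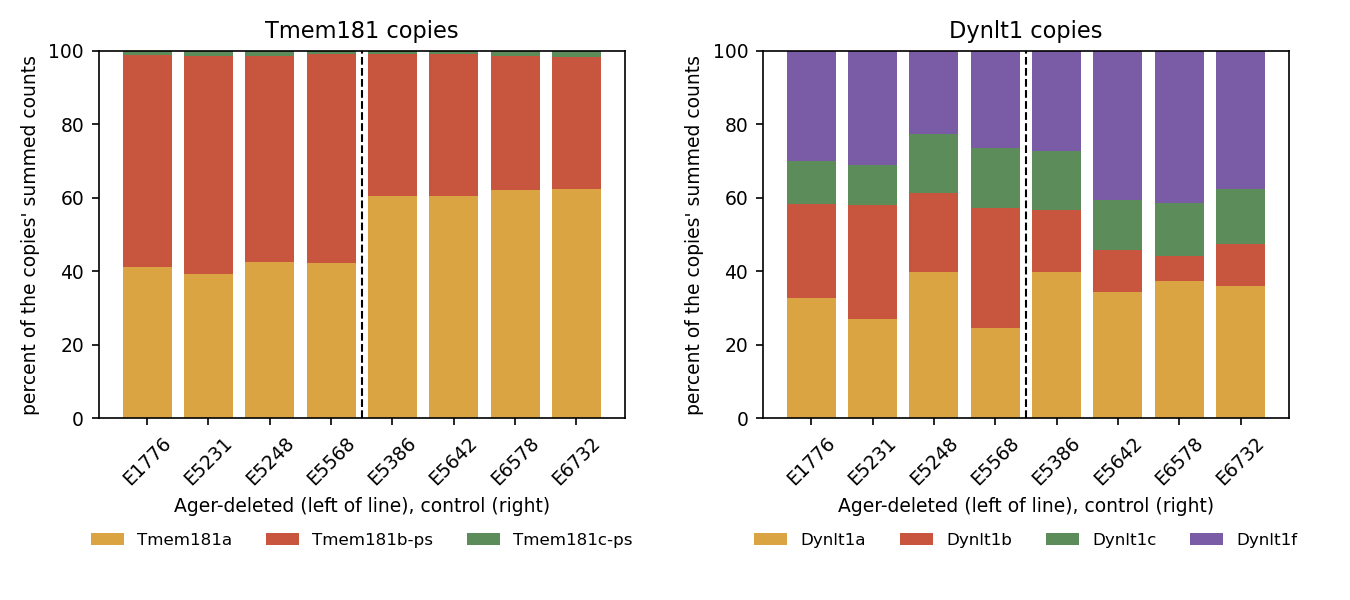
Percent of the summed counts of the Tmem181 copies (left) and the Dynlt1 copies (right) on each copy, 1 bar per mouse, with Ager-deleted mice left of the dashed line and controls right of it. The red part, Tmem181b-ps on the left and Dynlt1b on the right, is larger in each Ager-deleted mouse (56.1% to 59.2% and 21.6% to 32.6%) than in any control (36.1% to 38.5% and 6.90% to 17.1%).

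The copies were also summed. A sum does not change with how reads are divided among the copies in it, but it does change with reads shared with genes outside it or left uncounted. The summed Tmem181 copies were at 60.0, 57.3, 65.1 and 61.7 CPM in Ager-deleted mice and at 40.1, 36.3, 36.4 and 37.4 CPM in controls. The sums did not overlap, and their log2 fold change was 0.70 (61.0 ± 3.28 against 37.6 ± 1.79 CPM, SD, n = 4 per genotype). Without Tmem181b-ps the sum was 26.0 ± 2.19 CPM against 23.5 ± 1.02 CPM, and the genotypes overlapped. For Dynlt1 the summed copies overlapped between genotypes, at 6.83 to 8.44 CPM in Ager-deleted mice and 5.66 to 7.03 CPM in controls, a log2 fold change of 0.25. With Dynlt1-ps1 added, whose stretches all occur in Dynlt1a, the sum was 7.59, 9.30, 9.03 and 8.14 CPM in Ager-deleted mice and 7.36, 7.01, 5.95 and 7.42 CPM in controls, a sum made after the values were seen. The genotypes then did not overlap, by a narrow margin between E1776 and E6732, and the log2 fold change was 0.30. Without Dynlt1b and Dynlt1-ps1 the Dynlt1 sum was 5.58 ± 0.700 CPM against 5.72 ± 0.331 CPM, with a log2 fold change of -0.04. Neither of the other Tmem181 copies had a lower mean in Ager-deleted mice. Of the other Dynlt1 copies Dynlt1f did (2.12 against 2.36 CPM). How reads were divided among the copies was not tested.

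The genes around the locus were not chosen by their values and were tested. Within 1 Mb on either side 52 genes are annotated, 50 have a row and 16 passed the filter on low counts. None of the 16 had an adjusted p under 0.05 in edgeR's exact test, beside 0.0719% of all genes. None had an unadjusted p under 0.05, beside 4.26% of all genes, and none was separated between genotypes, beside 3.88%. The quasi-likelihood test and DESeq2 also called none of the 16, beside 1 and 25 genes in the whole table. Their median log2 fold change was -0.01, from -0.41 to 0.27, with 8 above 0 and 8 below. Tulp4, the nearest tested gene on the Tmem181a side and a member of the tubby-like family, was at 251 ± 17.6 CPM in Ager-deleted mice and 255 ± 26.0 CPM in controls (SD, n = 4 each), a log2 fold change of -0.02 ± 0.09 (SE). On the Dynlt1f side the nearest tested gene was Sytl3, which encodes a synaptotagmin-like protein of vesicle trafficking, at 0.495 ± 0.128 and 0.586 ± 0.153 CPM, a log2 fold change of -0.26 ± 0.27 (SE). The extremes of the 16 were Zdhhc14, a palmitoyltransferase gene, at 0.27 ± 0.13 and the ribonuclease gene Rnaset2b at -0.41 ± 0.21 (log2 fold change ± SE, adjusted p = 1 for both in edgeR's exact test). Serac1, a phospholipid remodelling gene, and Rps6ka2, a ribosomal S6 kinase gene, had log2 fold changes of 0.11 ± 0.08 and 0.08 ± 0.07 (SE). Within 500 kb the count was 0 of 12 genes and within 2 Mb it was 0 of 28.

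**Figure D4:**
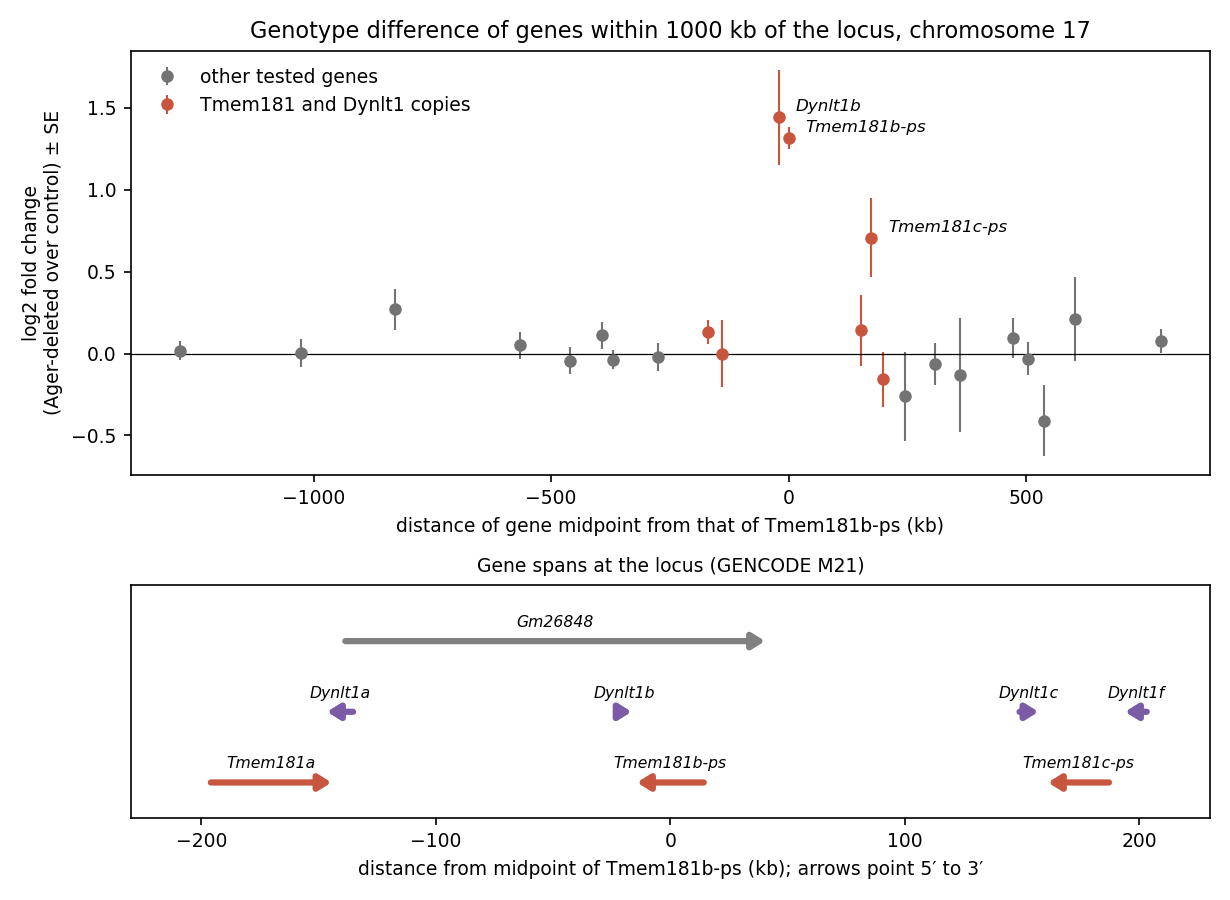
Upper panel, log2 fold change of Ager-deleted over control with its SE for each tested gene within 1 Mb of the locus, against the distance of the gene's midpoint from that of Tmem181b-ps in kb, with the copies in red and other genes in grey; lower panel, gene spans with arrows from 5′ to 3′. Dynlt1b (1.44) and Tmem181b-ps (1.32) stand next to each other above all flanking genes, which lie between -0.41 and 0.27. Tmem181c-ps (0.71) also lies above all flanking genes.

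Ager lies on the same chromosome, at chr17:34597862-34600936, 27.9 Mb beyond the end of the locus. Between the locus and Ager 405 genes were tested, a window added after the data were seen. None had an adjusted p under 0.05 (edgeR exact test), beside 0.0719% of all genes, a share at which few or no calls would be found among 405. An unadjusted p under 0.05 was found for 19, beside 4.26% of all genes. Between genotypes 17 (4.20%) did not overlap, beside 3.88% of all genes. The median log2 fold change of the 405 was 0.04. The quasi-likelihood test and DESeq2 called none of the 405, beside 1 and 25 genes in the whole table. At most 2 were called in any other fit, and these were Plg (plasminogen, made in liver), Rpl3l (a ribosomal protein of striated muscle), Msln, Zfp942 and Zfp946, named after their values were seen. Liver markers were high in E6732 and muscle markers in E5386 and E5642, and their part in these calls was not tested.

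Genes for dynein and its partners, and other genes of the GOST family to which TMEM181 belongs, were tested as well. Of 33 genes for dynein subunits, dynactin subunits and dynein adaptors, all 33 were tested. None passed the adjusted threshold of edgeR's exact test, beside 0.0719% of all genes. The quasi-likelihood test and DESeq2 also called none of the 33, beside 1 and 25 genes in the whole table. With so few calls in the whole table, a count of 0 in a short list shows little about its genes. At an unadjusted p under 0.05 there were 2, beside 4.26% of all genes. The median log2 fold change of the 33 was 0.01, and 1 of them (3.03%) did not overlap between genotypes, beside 3.88% of all genes. That gene was Capza2, which encodes a capping protein subunit found in dynactin, with a log2 fold change of -0.18 ± 0.06 (SE) and an adjusted p of 1. Dynlt3, which encodes the light chain most related to Dynlt1, was at 118 to 167 CPM in Ager-deleted mice (mean 137 ± 22.2, SD, n = 4) and 152 to 176 CPM in controls (mean 168 ± 10.5, n = 4). The genotypes overlapped through E5248, and the log2 fold change was -0.29 ± 0.11 (SE) with an adjusted p of 0.88 (edgeR exact test). Without E5248 it was -0.40 with an adjusted p of 0.0383 (edgeR exact test), in a fit that called 53 genes in the whole table against 14 with all mice. No other fit called a dynein or dynactin gene. Dctn1, the large subunit of dynactin, had a log2 fold change of 0.14 ± 0.08 (SE). Of 7 other genes of the GOST family none passed the adjusted or the unadjusted threshold in edgeR's exact test, beside 0.0719% and 4.26% of all genes. None was called by the quasi-likelihood test or DESeq2. The log2 fold changes of the 7 ran from -0.10 for Tmem87a to 0.21 for Tmem145 with a median of 0.02, and Gpr180 was at 0.09.

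The genes whose pattern over the 8 mice was most like that of Tmem181b-ps were found by the root mean square difference of log2(CPM + 1) values after the mean of each gene was subtracted, over 19463 genes outside the locus. Among the nearest were Nnt (0.42), Polr3e (0.44), Gm3435 (0.44) and Dll3 (0.45), against a median of 0.64, and the likeness is a description. The genotype difference makes up most of the pattern of Tmem181b-ps, so genes that differ in the same direction come out nearest. A gene at the same level in every mouse would score near that median. Nnt, a mitochondrial transhydrogenase gene, was at 37.0, 34.2, 36.7 and 22.2 CPM in Ager-deleted mice and at 24.2, 21.4, 20.7 and 21.1 CPM in controls. It followed Tmem181b-ps in 3 Ager-deleted mice, while E5568 was among the controls. Polr3e, which encodes a subunit of RNA polymerase III, was at 58.2, 53.2, 85.0 and 116 CPM in Ager-deleted mice and at 48.3, 45.9, 44.2 and 51.5 CPM in controls, so its groups did not overlap but E5568 was far above the other Ager-deleted mice. Dll3, a Notch ligand gene, was at 2.29 to 3.13 CPM in Ager-deleted mice and 1.61 to 1.97 CPM in controls, with no overlap. Gm3435, which also lies on chromosome 17 (chr17:15010176-15022449), was at 1.42 to 2.12 and 0.683 to 1.48 CPM and overlapped. None of these 4 passed the adjusted threshold of edgeR's exact test, and none matched the narrow spread of Tmem181b-ps within both genotypes.

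**Figure D5:**
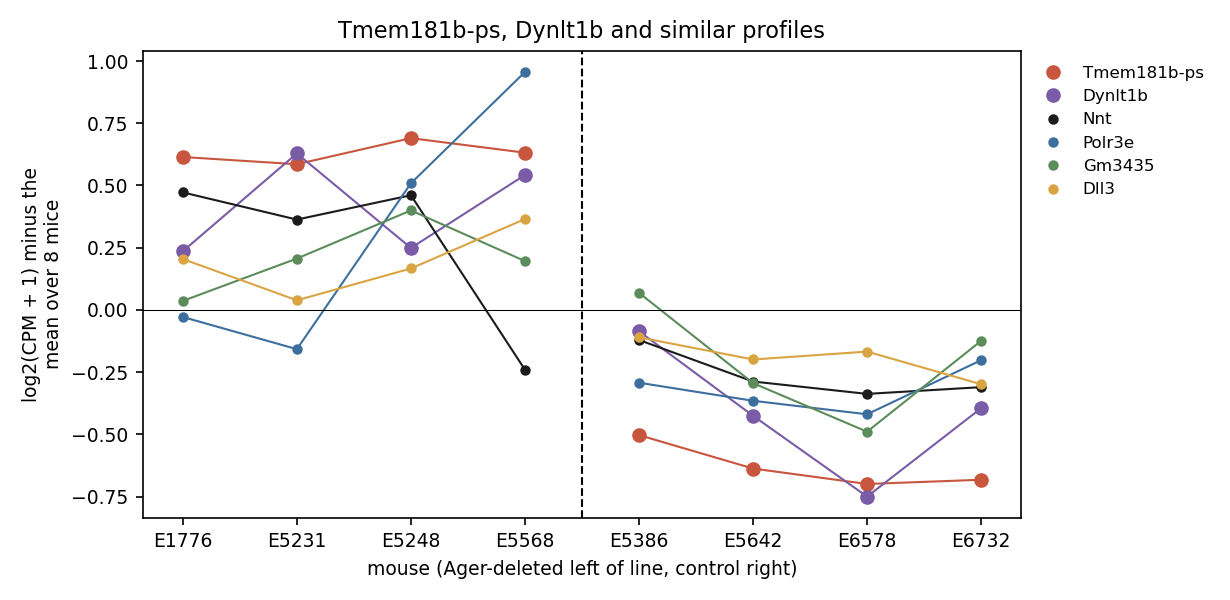
Log2(CPM + 1) of each gene minus its mean over the 8 mice, with Ager-deleted mice left of the dashed line and controls right of it, for Tmem181b-ps, Dynlt1b and 4 similar profiles. Tmem181b-ps is flat within each genotype, Nnt drops to the controls' level in E5568 (22.2 CPM), and Polr3e peaks in E5568 (116 CPM).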

How the data were processed

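The authors trimmed reads with Trimmomatic 0.36, aligned them to mm10 with STAR 2.7.3a, assigned read pairs to GENCODE M25 genes by featureCounts (Subread 1.6.3), and deposited raw counts for 55291 genes of 8 mice. Per the labels libraries came from a stranded kit. The authors also deposited log2 values of TMM-normalized CPM, which were recomputed from the counts within 4.78e-06 for 19470 genes and used only for that check. Mice were grouped by the genotype in the labels.

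Genes were filtered with filterByExpr (minimum 10 counts), scaled by TMM and tested in edgeR 4.0.16 (R 4.3.3) with the exact test and estimateDisp without a design. The p-values were adjusted by Benjamini-Hochberg over 19470 genes, with a threshold of 0.05. Fold changes of single genes are on the fitted scale and their SEs come from the quasi-likelihood fit. Those of summed copies are differences of mean log2 CPM of the summed counts, without a fit or an SE. Nothing in the labels says that mice came from separate litters, and p-values measure the spread between mice. No pair of libraries agreed within sampling noise (lowest chi-square per degree of freedom 16.2). Counting limits cover counting error only. The tests were first run on simulated data.

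The members and the gene lists were chosen with earlier results of these data known, and the lists were written by hand. Genes named outside the locus are Ager, the flanking genes and the dynein and GOST genes past the threshold or, with none, the 5 (flanking) or 3 smallest p, the nearest gene on each side, Dynlt3 and the 5 profiles most like Tmem181b-ps. Of the profiles 1 is not reported here. Dynlt1-ps1, Plg, Rpl3l, Msln, Zfp942 and Zfp946 were named after their values were seen. Positions and sequences are from GENCODE M21 on GRCm38, matched by symbol. Alternatives were the quasi-likelihood test, DESeq2 1.42.0, limma-voom (limma 3.58.1), common and tagwise dispersions, RLE size factors, library size only, no filter, each mouse left out, and E5386 and E5642 left out together. The search of shared stretches, the genes between the locus and Ager and the sum with Dynlt1-ps1 were added after the data were seen.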

Additional observations from a re-analysis of the deposited data

How the results depend on the processing

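Over the alternatives run, the log2 fold change was 1.29 to 1.38 for Tmem181b-ps, 1.23 to 1.82 for Dynlt1b, 0.67 to 0.73 for the summed Tmem181 copies and 0.18 to 0.31 for the summed Dynlt1 copies. No flanking gene and no GOST gene was called under any alternative run. The 14 genes called in the whole table became 1 with the quasi-likelihood test, 1 with limma-voom, 25 with DESeq2, 78 with common and tagwise dispersions and 67 without controls E5386 and E5642, and 3 (without E5231) to 98 (without E6578) when 1 mouse was left out; the cause was not tested. Leaving out 1 mouse gave 0 to 1 called dynein and dynactin gene, Dynlt3 without E5248. For Ager the log2 fold change ranged from -0.94 to -0.69 when 1 mouse was left out, and it passed the threshold without E5386 (-0.94, adjusted p = 0.0442, edgeR exact test). Per kilobase of exon the share of Tmem181b-ps was 65.6% in Ager-deleted mice and 46.6% in controls. With stretches of 50 bases in place of 100, the share found in no other gene was 65.6% for Tmem181a, 49.2% for Tmem181b-ps and 16.8% for Dynlt1b. The search against a genome was not run. No paired analysis was possible because the labels name mice by ID and give no replicate numbers that groups share. Dynlt1b, Dynlt1c and Tmem181c-ps rest on 11 to 97 counts per mouse, which limits their precision.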
